A study of Mus musculus with 6 samples.

Results

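The 41 genes described here encode proteins that license replication origins, copy DNA at the fork and bring cells into S phase, other than the MCM helicase subunits. They were chosen by gene name from a deposited table of isoform levels, and all 41 were found among the 27694 genes of that table. Each passed the filter on low values, a mean of at least 1 FPKM (sequenced fragments per kilobase of isoform, normalised to library size), so that none was left out of the tests. Mean levels ran from 2.35 to 60.7 FPKM, with a median of 13.8. The choice of genes did not use the measured values, but it was made with earlier results of these data known.

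Before S phase, the origin recognition complex recruits CDC6 and CDT1 to load the MCM helicase onto DNA, and geminin blocks CDT1 so that an origin is not licensed again in the same cycle. CDC45 and the GINS complex then turn the loaded helicase into an active fork, where polymerase alpha and primase lay primers and the polymerases delta and epsilon extend them, held by the PCNA clamp that the RFC complex loads. Much of this set is transcribed as cells leave G1, under E2F factors, and it is used by the dividing neural stem cells that growth factors keep in culture.

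The samples were untreated cultures of mouse neural stem cells of strain C57/Bl6, 3 labelled vimentin knockout (KO) and 3 labelled wild type (WT). All 6 were kept in serum-free medium with B27, FGF-2 and EGF, and heparin was given to cells grown as monolayers. The labels give neither the knockout allele nor how many animals the cultures came from, so p-values measure the spread between these cultures, which may be technical. RNA depleted of ribosomal RNA was sequenced as paired reads with a kit that marks strand.

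Vim, the intermediate filament gene named by the genotype, stood at 650, 732 and 624 FPKM in the 3 libraries labelled KO, against 191, 179 and 186 FPKM in the 3 labelled WT. The RNA level of the targeted gene therefore went against the labels, and every direction given here is between libraries by their label. Aligned bases corresponded to 28.4 to 32.5 M reads in the libraries labelled KO and 28.9 to 36.2 M in those labelled WT. WT 2 stood apart: 16.4% of its FPKM lay in isoforms outside the annotated genes as summed here, against 3.99% to 5.49% in the other libraries. Of 12 neural stem cell markers, 11 had a mean of at least 1 FPKM, among them Fabp7, Slc1a3, Pax6 and Nes. Sox2 was listed at 0 in KO 1 to 3 and WT 2 and at 53.3 and 28.4 FPKM in WT 1 and 3. Sox1 had 0.215, 0 and 0 FPKM in KO 1, 2 and 3 and 0, 21.0 and 18.3 FPKM in WT 1, 2 and 3. Of these markers limma called Vim and Egfr higher, and the other tested ones were not called. Egfr averaged 141 FPKM in libraries labelled KO and 71.6 FPKM in those labelled WT (log2 fold change 0.98, limma BH-adjusted p = 0.0195). The sum of the 12 markers, which include Vim, was 1944 to 1994 FPKM in the libraries labelled KO and 1112 to 1384 FPKM in those labelled WT. Of 8 oligodendrocyte lineage markers, the 7 in the table summed to 66.3 to 68.8 FPKM in the libraries labelled KO and 116 to 122 FPKM in those labelled WT, with no overlap, and limma called Pdgfra and Cnp lower. The 8 astrocyte markers summed to 501 to 551 FPKM in the libraries labelled KO and 187 to 642 FPKM in those labelled WT, a sum that Aldoc carries, with 291 to 350 FPKM in the libraries labelled KO and 6.40, 324 and 488 FPKM in WT 1, 2 and 3. Single astrocyte markers were called in both directions: Gfap (log2 fold change −1.50; limma, BH-adjusted p = 0.0020) and Aqp4 (−1.76; limma, BH-adjusted p = 0.0024) were lower, and Aldh1l1 (4.27; limma, BH-adjusted p = 0.0019) was higher. The 7 of 8 neuron markers in the table summed to 88.9 to 137 FPKM in the libraries labelled KO and 66.2 to 178 FPKM in those labelled WT, with overlap. None of the microglia, endothelial and fibroblast markers reached a mean of 1 FPKM. The part of these other cell types in the results was not tested.

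In the cultures labelled KO, 10 genes rose and 0 fell. The 10 were Pold1, Pola2, E2f1, Pold2, Dna2, Rrm2, Chaf1b, Lig1, Rfc3 and Cdc6. Their group means stood 1.56 to 2.62 times those of the libraries labelled WT, and they came from 7 of the 8 roles that the 41 genes were sorted into. The call was a Benjamini-Hochberg adjusted p under 0.05 from limma, fitted to log2(FPKM + 1) over 12080 genes. Of all genes tested, 3.65% were called higher and 3.25% lower, against 24.4% (10 of 41) and 0 of the replication genes. With no adjustment, 24 of the 41 had a limma p under 0.05 and a higher level in the libraries labelled KO, and 0 had a lower one. Over all 12080 genes tested, the same counts were 1533 higher and 1439 lower. The call by limma-voom on estimated reads gave 12 higher and 0 lower among the 41. Over all 12080 genes it gave 594 higher and 470 lower.

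The remaining 31 genes lay mostly on the same side without passing the test. In all, 37 of the 41 log2 fold changes were above 0 and 4 below, with a median of 0.41 and a range of −0.96 to 1.55, while the median over all genes tested was −0.02. In 27 genes (65.9%) every library labelled KO lay above every library labelled WT, against 16.9% of all genes tested. In 0 of the 41 genes did every library labelled KO lie below, against 1977 of the 12080 genes tested. The groups overlapped in 14 genes. Without WT 2 the non-overlapping genes numbered 31, but fewer libraries separate more easily, and the share over all genes was not computed. The called ones then numbered 8 (19.5%), against 3.73% of all genes tested in that fit. Cdc45, Pole and Chaf1a entered the call, while Rrm2, Chaf1b, Lig1, Rfc3 and Cdc6 left it. In bulk RNA, a larger share of cells in S phase and more of these RNAs per cell cannot be told apart.

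**Figure D1:**
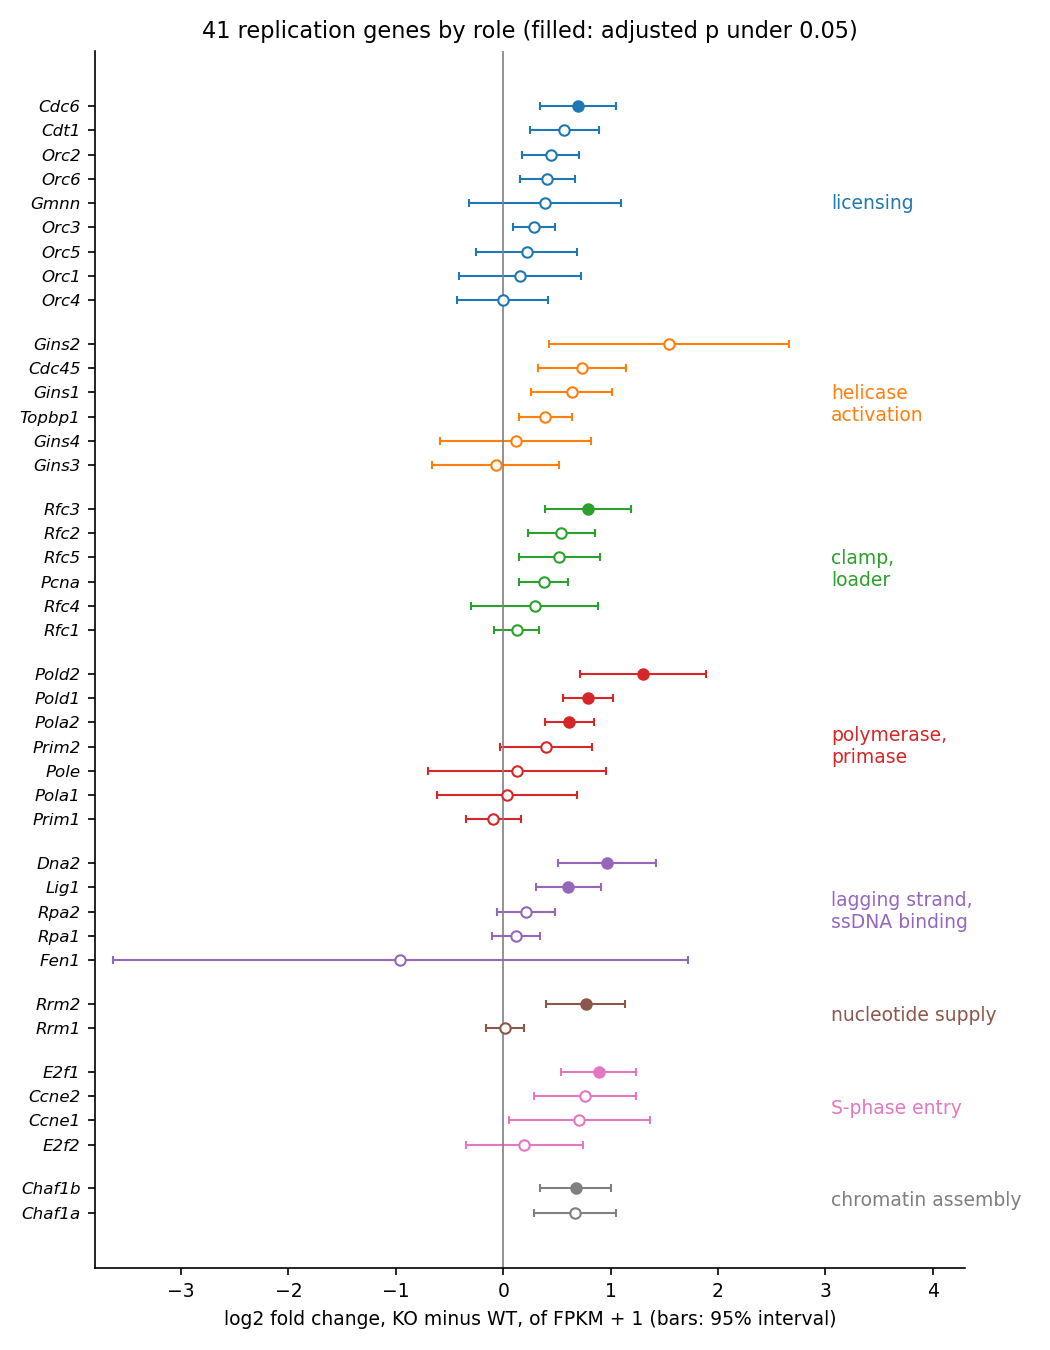
Log2 fold change of FPKM + 1, libraries labelled KO minus libraries labelled WT, for each of the 41 genes with its 95% interval from limma, coloured by role; filled points have an adjusted p under 0.05. The filled points all lie to the right of 0, Gins2 and Fen1 have the widest intervals, and the 4 points left of 0 are Fen1, Prim1, Gins3 and Orc4.

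The shift was present in each library labelled KO. Relative to the WT mean, the median deviation over the 41 genes was 0.51, 0.39 and 0.47 log2 units in KO 1, 2 and 3. Each WT library set against its 2 companions gave 0.08, −0.05 and 0.07. Over all genes tested the same medians lay between −0.01 and 0.01 in the libraries labelled KO and between −0.03 and 0.09 in those labelled WT. Of the 41 genes, 95.1%, 82.9% and 92.7% lay above the WT mean in KO 1, 2 and 3.

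**Figure D2:**
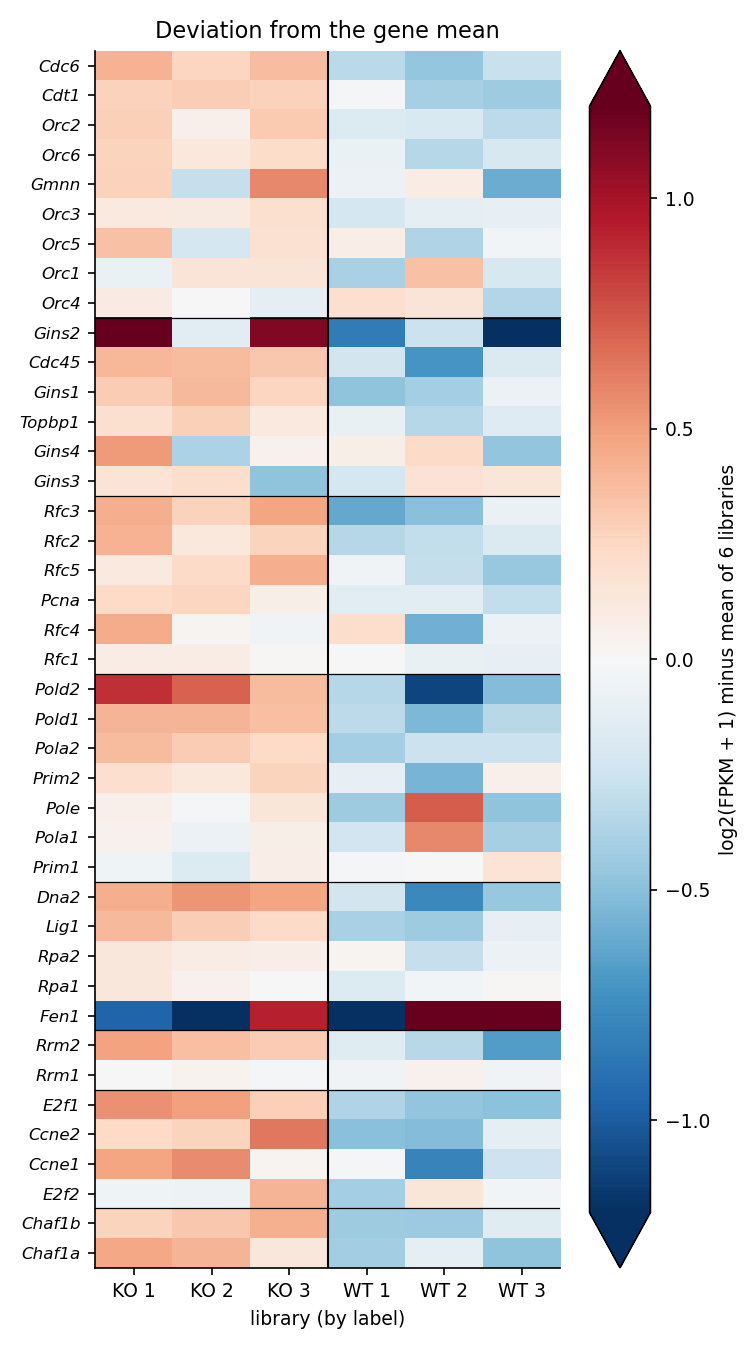
Deviation of log2(FPKM + 1) from the mean of the 6 libraries, for the 41 genes (rows, by role) in libraries labelled KO (left 3 columns) and WT (right 3 columns), on a colour scale that is cut at its ends. Most rows are above their mean in KO 1, KO 2 and KO 3, while in Pole, Pola1, Orc1 and Fen1 the highest value is that of WT 2.

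The promoters of the set were read for E2F-type letters, since E2F factors are the known regulators of many of these genes. RefSeq promoters of build GRCm38.p6, from 250 bases before to 50 after a gene's start, were available for 33 of the 41 genes, some with more than 1 start. The letters searched were TTTCCCGC and TTTGGCGC on both strands, and each promoter that held a match held 1, so no matches overlapped. The sites are shown with up to 10 flanking bases, read 5′ to 3′ on the strand of the gene, with the match in capitals.
Cdc6, chr11:98908003-98908030, plus strand: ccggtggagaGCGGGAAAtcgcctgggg
Pold1, chr7:44548766-44548786, minus strand: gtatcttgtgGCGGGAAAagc
Rfc3, chr5:151651191-151651218, minus strand: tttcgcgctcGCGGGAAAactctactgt
Cdt1, chr8:122568037-122568064, plus strand: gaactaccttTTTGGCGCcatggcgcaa
E2f2, chr4:136172303-136172323, plus strand: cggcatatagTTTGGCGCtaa
Gins3, chr8:95633508-95633535, plus strand: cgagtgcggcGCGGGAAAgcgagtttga
Orc3, chr4:34614966-34614993, minus strand: catgcctcccTTTCCCGCacgccccgcc
Pola1, chrX:93632276-93632303, minus strand: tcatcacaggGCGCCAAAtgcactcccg

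These 8 genes were 24.2% of the 33 with a promoter, against 3.74% of the 8887 tested genes with one (332 genes) and 1.8% of all 27025 genes in the promoter table (486 genes). The match began 138 bases before the start in Cdc6 and Pola1 and 41 before it in Gins3 and Orc3. It began at the start in Rfc3, and 32 to 39 bases after it in Cdt1, E2f2 and Pold1. Of the called genes, 3 of 10 held a match, and of the genes not called, 5 of 23 with a promoter. The median log2 fold change was 0.43 in the 8 genes with a match and 0.41 in the 25 without. The letters CCAAT, on either strand, were in a promoter of 54.5% of the 33 genes and of 43.9% of the tested genes. They were in 3 of the 10 called genes (30%) and in 15 of the 23 not called (65.2%), a difference that was not tested. A match is a description of the letters, and a promoter without one says nothing about the factors that bind there.

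Among the 9 licensing genes, 1 rose, Cdc6, and 0 fell, with a median log2 fold change of 0.39. Cdc6, the ATPase that joins the origin recognition complex and recruits CDT1 with the helicase (chromosome 11, 98907801 to 98923940), had 3.34, 2.89 and 3.22 FPKM in the libraries labelled KO, against 1.60, 1.37 and 1.71 FPKM in those labelled WT. The groups did not overlap, and the group means differed 2.02-fold, with a log2 fold change of 0.70 ± 0.14 (SE, n = 3 each; limma, BH-adjusted p = 0.0465). The call depended on which isoforms were summed: 2 isoforms that the table classes outside the gene held 3.00, 0.838 and 0.129 FPKM in KO 1, 2 and 3 and 1.42, 6.43 and 0.515 FPKM in WT 1, 2 and 3. With every isoform class included, the log2 fold change of Cdc6 was 0.13 (limma, BH-adjusted p = 0.89).

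Cdt1, which CDC6 recruits to load the helicase, had 24.1, 24.5 and 24.1 FPKM in the libraries labelled KO, against 19.3, 14.7 and 14.4 FPKM in those labelled WT. The KO values were nearly equal and lay above all WT values, which were more spread. The gene lay just outside the threshold, at a log2 fold change of 0.57 (95% interval 0.25 to 0.89; limma, BH-adjusted p = 0.0598). It passed without WT 1 (limma, BH-adjusted p = 0.0281). Its inhibitor geminin, Gmnn, had 6.47, 4.09 and 8.17 FPKM in the libraries labelled KO and 4.86, 5.56 and 3.06 FPKM in those labelled WT, with overlap. The ratio of Cdt1 to Gmnn was 2.95 at its lowest in the libraries labelled KO and 4.70 at its highest in those labelled WT, and so did not separate the groups.

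None of the 6 subunits of the origin recognition complex was called, and no test between them was made. Orc2 averaged 18.3 ± 1.76 FPKM in libraries labelled KO and 13.1 ± 0.774 FPKM in those labelled WT (SD, n = 3 each), and Orc6 averaged 17.4 ± 0.919 FPKM in libraries labelled KO and 12.9 ± 1.24 FPKM in those labelled WT. Orc3 averaged 28.6 ± 0.982 FPKM in libraries labelled KO and 23.3 ± 1.04 FPKM in those labelled WT. In these 3 genes the groups did not overlap, while the limma adjusted p was between 0.0694 and 0.0970 and no call was made. Orc1, the subunit that is known to vary over the cell cycle in human cells, had 2.33, 2.92 and 2.91 FPKM in the libraries labelled KO and 1.68, 3.47 and 2.07 FPKM in those labelled WT. Its groups overlapped through WT 2, and isoforms left out of its sum held 15.6 FPKM in that library, against 1.70 to 4.24 FPKM in the other 5. Orc4 and Orc5 overlapped as well, with log2 fold changes of −0.01 and 0.22. Orc5 shares its assembled locus with Gm15421, so reads of the pair may be split between them.

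None of the 6 genes of helicase activation passed the test. The groups did not overlap, with KO above, in 4 of the 6, against 16.9% of all genes tested. The median log2 fold change of the 6 genes was 0.51. Cdc45, the subunit that completes the active helicase, had 14.4, 14.1 and 13.5 FPKM in the libraries labelled KO, against 8.97, 6.10 and 9.34 FPKM in those labelled WT. The KO libraries were close together and above the rest, at 1.72 times the WT mean, and limma gave an adjusted p of 0.0589, or 0.0376 without WT 2. Topbp1, the scaffold that helps CDC45 and GINS onto origins, averaged 34.4 ± 2.05 FPKM in libraries labelled KO and 26.0 ± 2.44 FPKM in those labelled WT (SD, n = 3 each), also without overlap. Pseudogenes named for it stand in the mouse annotation, and reads shared with them could be placed at either.

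None of the 4 GINS subunits, which work as 1 complex, was called, and no test between them was made. Gins1 had 6.14, 6.59 and 5.92 FPKM in the libraries labelled KO and 3.15, 3.36 and 4.51 FPKM in those labelled WT, with no overlap. Gins2 had 15.5, 4.92 and 13.0 FPKM in the libraries labelled KO, against 2.62, 4.42 and 1.79 FPKM in those labelled WT. Here KO 2 lay close to WT 2, so that the 3.78-fold difference in group means, the widest of the 41 genes, came with a log2 interval of 0.43 to 2.66 and a limma adjusted p of 0.107. Gins3 and Gins4 overlapped between groups and had log2 fold changes of −0.07 and 0.12.

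In the clamp and its loader, 1 of 6 genes rose. The groups did not overlap, with KO above, in 5 of the 6, against 16.9% of all genes tested. Rfc3, a small subunit of the clamp loader (chromosome 5, 151642756 to 151651242), had 21.6, 19.2 and 22.1 FPKM in the libraries labelled KO, against 9.91, 10.8 and 14.8 FPKM in those labelled WT. Every library labelled KO was above WT 3, the highest of its group, and the difference was 1.77-fold (log2 fold change 0.79 ± 0.16, SE, n = 3 each; limma, BH-adjusted p = 0.0460). Assembled isoforms, built from the reads and absent from the annotation, held 33.8%, 20.7% and 30.9% of Rfc3 in KO 1, 2 and 3 and 5.40%, 1.09% and 2.80% in WT 1, 2 and 3. The main annotated isoform alone, ENSMUST00000038131, had at least 9.83 FPKM in the libraries labelled KO and up to 11.1 FPKM in those labelled WT, and overlapped. So part of the difference in Rfc3 lay in isoforms that the assembly placed mainly in libraries labelled KO.

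Pcna, the clamp that holds polymerases on DNA, was the most abundant of the 41 genes, with 71.1, 72.2 and 63.0 FPKM in the libraries labelled KO, against 54.6, 54.6 and 48.9 FPKM in those labelled WT. The groups did not overlap and the difference was small, 1.31-fold, and not called (log2 fold change 0.38, interval 0.15 to 0.61; limma, BH-adjusted p = 0.0706). Pseudogenes of Pcna also stand in the annotation, and a split of reads with them cannot be seen in the table. Rfc2 had 9.37, 7.44 and 8.32 FPKM in the libraries labelled KO and 5.11, 5.33 and 5.86 FPKM in those labelled WT. It was separated between groups but not called (limma, BH-adjusted p = 0.0642), as was Rfc5 at 10.0 ± 1.24 FPKM in libraries labelled KO and 6.67 ± 1.12 FPKM in those labelled WT. Rfc4 overlapped. Rfc1, the large subunit, differed by 0.13 log2 units, with 14.3 ± 0.449 FPKM in libraries labelled KO and 13.0 ± 0.532 FPKM in those labelled WT.

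Polymerases and primase held 3 of the 10 called genes, and these were accessory or delta subunits. Pold1, the catalytic subunit of polymerase delta (chromosome 7, 44532746 to 44548849), had 28.1, 28.1 and 27.1 FPKM in the libraries labelled KO, against 16.6, 14.1 and 16.4 FPKM in those labelled WT. The libraries within each group were close together and the groups far apart, 1.77-fold, which gave the smallest p of the set (log2 fold change 0.79 ± 0.10, SE, n = 3 each; limma, BH-adjusted p = 0.0102). Pold1 shares its assembled locus with Nr1h2, and was called in 4 of the 6 fits that left out 1 library. Pold2, the regulatory subunit of the same enzyme (chromosome 11, 5872180 to 5878292), had 23.5, 20.9 and 16.4 FPKM in the libraries labelled KO, against 9.59, 5.25 and 8.35 FPKM in those labelled WT. Its spread was wider and its difference larger, 2.62-fold (log2 fold change 1.31 ± 0.24, SE; limma, BH-adjusted p = 0.0336).

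Pola2, the regulatory subunit of polymerase alpha (chromosome 19, 5940543 to 5964206), had 23.1, 21.9 and 21.0 FPKM in the libraries labelled KO, against 13.0, 14.5 and 14.5 FPKM in those labelled WT. No value of either group came near the other, and the group means differed 1.57-fold (log2 fold change 0.62 ± 0.09, SE, n = 3 each; limma, BH-adjusted p = 0.0190). Its catalytic partner Pola1 had 10.7, 9.72 and 10.9 FPKM in the libraries labelled KO and 8.62, 15.9 and 7.55 FPKM in those labelled WT. There WT 2 alone lay above the KO libraries. Pole, the catalytic subunit of polymerase epsilon, had the same layout, with 14.6, 13.8 and 15.5 FPKM in the libraries labelled KO and 10.1, 23.7 and 9.69 FPKM in those labelled WT. With all 6 libraries its log2 fold change was 0.13 (limma, BH-adjusted p = 0.860), and without WT 2 it was 0.52 (limma, BH-adjusted p = 0.0496).

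In both genes the WT 2 value rested on assembled isoforms. These held 69.3% of Pole in WT 2, where its main annotated isoform was listed at 0, against 5.07%, 0.726% and 44.7% in KO 1, 2 and 3 and 0% and 13.2% in WT 1 and 3. For Pola1 they held all of the WT 2 value. Called genes were affected too: in WT 2 they held 86.7% of Pold1, 70.0% of Dna2 and 94.1% of Chaf1b. In the other called genes they held 0% to 32.5% in that library. The main annotated isoform of Pold1, ENSMUST00000049343, was listed at 0 in WT 2. With annotated isoforms alone, the log2 fold change of Pold1 was 1.26 and it was not called (limma, BH-adjusted p = 0.385). Pole also shares its assembled locus with Lrcol1. Over the 41 genes together, assembled isoforms took 8.93%, 10.1% and 11.1% of the FPKM in KO 1, 2 and 3 and 13.1%, 19.8% and 8.17% in WT 1, 2 and 3. Of the 258 isoforms summed for the set, 216 were annotated and 42 assembled. The primase subunits gave no call: Prim1, which makes the RNA primer, averaged 18.2 ± 1.62 FPKM in libraries labelled KO and 19.5 ± 1.43 FPKM in those labelled WT (SD, n = 3 each), with a log2 interval of −0.35 to 0.17. Its partner Prim2 averaged 18.2 ± 0.941 FPKM in libraries labelled KO and 13.8 ± 3.10 FPKM in those labelled WT, without overlap.

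**Figure D3:**
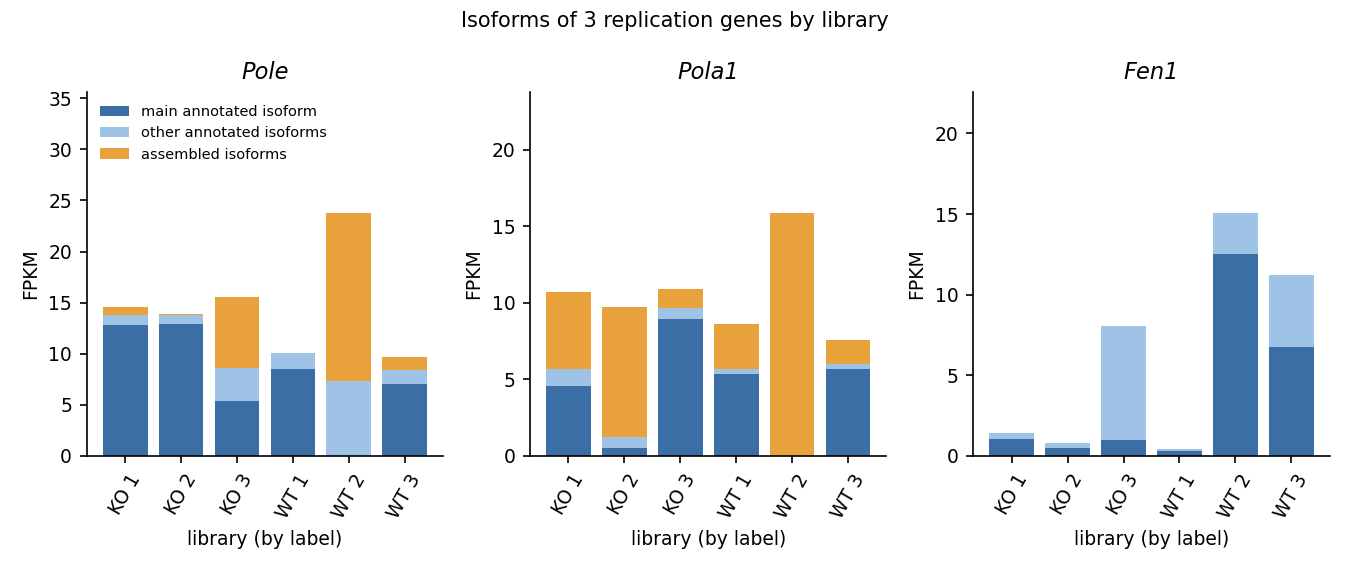
FPKM of the main annotated isoform, other annotated isoforms and assembled isoforms of Pole, Pola1 and Fen1, stacked for each library; libraries labelled KO stand left of those labelled WT. In WT 2, assembled isoforms make up 69.3% of Pole and all of Pola1, while Fen1 has no assembled isoforms and is high in KO 3, WT 2 and WT 3.

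Of 5 genes of lagging-strand processing and single-strand binding, 2 rose. Lig1, the ligase that seals Okazaki fragments (chromosome 7, 13277283 to 13311433), had 19.7, 18.3 and 17.5 FPKM in the libraries labelled KO, against 11.1, 10.8 and 13.8 FPKM in those labelled WT. Dna2, a nuclease and helicase that trims long flaps (chromosome 10, 62947026 to 62974185), had 3.65, 3.97 and 3.78 FPKM in the libraries labelled KO, against 1.94, 1.01 and 1.51 FPKM in those labelled WT. Neither gene overlapped between groups. The differences were 1.56-fold for Lig1 (log2 fold change 0.61 ± 0.12, SE; limma, BH-adjusted p = 0.0442) and 2.55-fold for Dna2 (0.97 ± 0.18, SE; limma, BH-adjusted p = 0.0383).

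Fen1, the flap nuclease that acts with DNA2, had the widest interval of the set. It had 1.43, 0.768 and 8.03 FPKM in the libraries labelled KO and 0.449, 15.0 and 11.2 FPKM in those labelled WT. Low and high libraries occurred in both groups, and the log2 interval, −3.63 to 1.72, covered changes of either sign. In the table Fen1 lies across the predicted gene Gm10143 on the opposite strand, and no source used here says whether strand was used in estimating levels. The single-strand binding subunits were not called. Rpa1 averaged 26.4 ± 1.32 FPKM in libraries labelled KO and 24.2 ± 1.58 FPKM in those labelled WT, with overlap, and it shares its assembled locus with AL603834.1. Rpa2 averaged 14.8 ± 0.328 FPKM in libraries labelled KO and 12.8 ± 1.47 FPKM in those labelled WT, without overlap. Assembled isoforms held 0.403% to 0.941% of Rpa1 in the libraries labelled KO and 27.8% to 39.8% in those labelled WT, a difference in makeup that its summed level did not show.

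Of the 2 genes for ribonucleotide reductase, which makes deoxynucleotides, 1 was called. Rrm2, the small subunit that is known to accumulate in S phase (chromosome 12, 24708241 to 24714146), had 70.4, 64.9 and 62.2 FPKM in the libraries labelled KO, against 45.4, 39.5 and 31.2 FPKM in those labelled WT. It rose 1.70-fold without overlap (log2 fold change 0.77 ± 0.15, SE, n = 3 each; limma, BH-adjusted p = 0.0402). Rrm1, the large subunit, had 43.5, 44.9 and 43.2 FPKM in the libraries labelled KO and 42.4, 45.3 and 42.4 FPKM in those labelled WT. Its values were mixed between groups, and its log2 interval of −0.16 to 0.19 was among the narrowest. The ratio of Rrm2 to Rrm1, on the per-length scale, was 1.62, 1.45 and 1.44 in the libraries labelled KO and 1.07, 0.873 and 0.735 in those labelled WT. The exact 2-sided permutation p was 0.1, the smallest that 3 against 3 libraries can give, and 0.2 after Benjamini-Hochberg adjustment over the 6 gene pairs compared. The pairs were chosen after their values were seen.

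Of the 4 genes of S-phase entry, E2f1 rose. The groups did not overlap, with KO above, in 3 of the 4, against 16.9% of all genes tested. E2f1, a transcription factor that activates S-phase genes (chromosome 2, 154559407 to 154569892), had 4.86, 4.62 and 3.88 FPKM in the libraries labelled KO, against 2.11, 1.87 and 1.84 FPKM in those labelled WT. The lowest library labelled KO was well above the highest labelled WT, at a difference of 2.30-fold (log2 fold change 0.89 ± 0.14, SE, n = 3 each; limma, BH-adjusted p = 0.0229). An isoform left out of its sum held 2.47, 1.52 and 2.36 FPKM in the libraries labelled KO and 0, 3.67 and 0.309 FPKM in those labelled WT, and with every isoform class E2f1 was not called (limma, BH-adjusted p = 0.201). E2f2, a related activator, had 2.90, 2.88 and 4.37 FPKM in the libraries labelled KO and 2.06, 3.48 and 2.96 FPKM in those labelled WT, with overlap. The cyclins that activate CDK2 at the G1/S boundary were both above without overlap and neither was called. Ccne2 had 3.97, 4.08 and 5.55 FPKM in the libraries labelled KO and 1.97, 1.94 and 2.89 FPKM in those labelled WT (limma, BH-adjusted p = 0.0752). Ccne1 had 3.99, 4.33 and 2.68 FPKM in the libraries labelled KO and 2.56, 1.07 and 2.04 FPKM in those labelled WT (limma, BH-adjusted p = 0.177).

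Chromatin assembly factor 1, which places histones on new DNA behind the fork, is represented by its large and middle subunits, and in both the groups were separate. Chaf1b (chromosome 16, 93883901 to 93906115) had 6.83, 7.14 and 7.77 FPKM in the libraries labelled KO, against 3.85, 3.81 and 4.89 FPKM in those labelled WT. It rose 1.73-fold (log2 fold change 0.68 ± 0.13, SE, n = 3 each; limma, BH-adjusted p = 0.0428). Chaf1a, with 14.4, 13.8 and 11.2 FPKM in the libraries labelled KO and 7.37, 9.37 and 6.96 FPKM in those labelled WT, had a similar log2 fold change of 0.67 and missed the threshold (limma, BH-adjusted p = 0.0617).

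**Figure D4:**
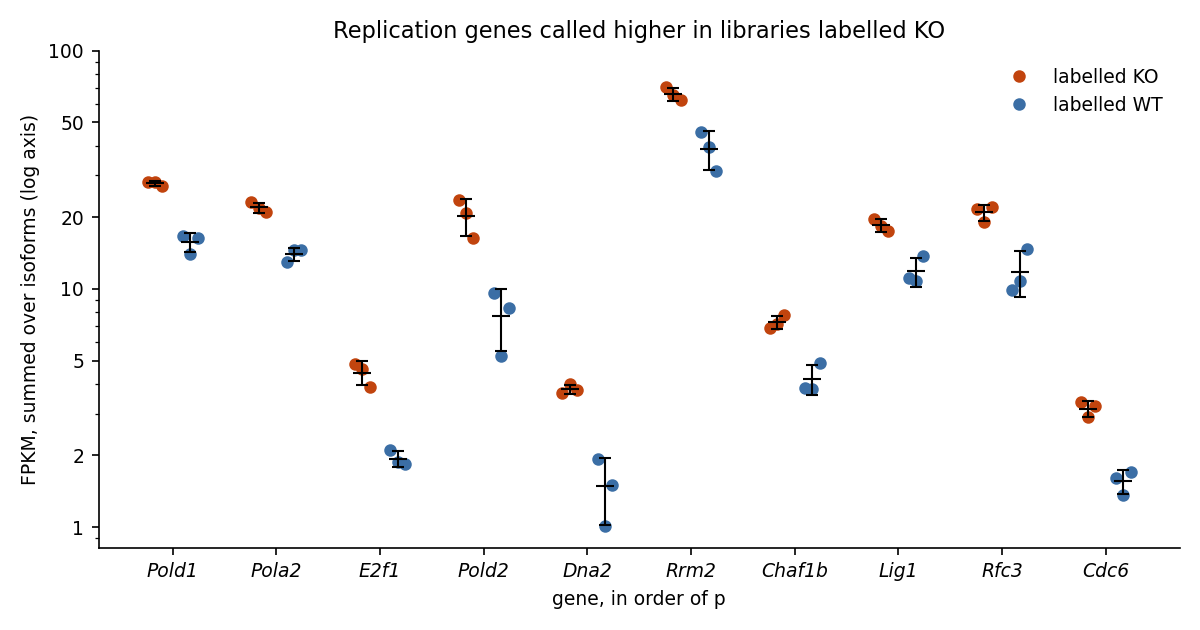
FPKM (log axis) of the 10 genes called higher, in order of p, with a point for each library labelled KO (left) or WT (right) and bars at the mean ± SD (n = 3 each). In each gene the 3 points labelled KO lie above the 3 labelled WT, from 2.89 to 3.34 against 1.37 to 1.71 FPKM in Cdc6 up to 62.2 to 70.4 against 31.2 to 45.4 FPKM in Rrm2.

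Other genes of the replication machinery lay mostly to the same side. Of 66 other genes of the pathway, 60 had a log2 fold change above 0, with a median of 0.43. In this list 9 rose (13.6%, against 3.65% of all genes tested), 0 fell and 57 were not called. Among the 9 were 4 of the 6 subunits of the MCM helicase that the licensing genes load. Mcm2 averaged 62.7 ± 2.71 FPKM in libraries labelled KO and 27.6 ± 2.42 FPKM in those labelled WT (SD, n = 3 each), a log2 fold change of 1.16 (limma, BH-adjusted p = 0.00375). Mcm3, Mcm5 and Mcm6 rose by 0.85, 0.62 and 0.69 log2 units, while Mcm4 and Mcm7 were not called. Mcm10, which binds the helicase at the fork, rose by 0.86, and the histone chaperones Nasp and Asf1b by 0.62 and 0.74. E2f8, a repressor of E2F targets, rose by 0.71, and Dnmt1, which methylates new DNA, by 0.45. Mcm2 lies on chromosome 6, whose 604 tested genes had a median log2 fold change of 0.27, against −0.09 to 0.08 on the other autosomes, and 0 of the 41 replication genes lie there. The 4 members on Vim's chromosome, Orc4, Gins1, Pcna and E2f1, are 35.3 to 141 megabases from it.

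Genes used later in the cycle lay mostly to the same side, and most were not called. Of 30 G2/M genes, 5 rose (16.7%, against 3.65% of all genes tested), 0 fell and 25 were not called. Their log2 fold changes ran from −0.20 to 1.23, with a median of 0.38 and 29 values above 0. Incenp, a scaffold of the chromosomal passenger complex, averaged 17.2 ± 1.23 FPKM in libraries labelled KO and 10.5 ± 0.494 FPKM in those labelled WT (SD, n = 3 each), a log2 fold change of 0.66 (limma, BH-adjusted p = 0.0184). Cdca8 of the same complex, Hmmr and Racgap1 rose by 0.58, 0.59 and 0.40 log2 units. The groups did not overlap, with KO above, in 65.9% of the 41 replication genes, 53.0% of the other pathway genes and 53.3% of the G2/M genes. Over all genes tested the share was 16.9%. With KO below, the groups did not overlap in 0, 1 and 1 genes of the 3 lists, and in 1977 of the 12080 genes tested. No test of a difference between the lists was made.

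**Figure D5:**
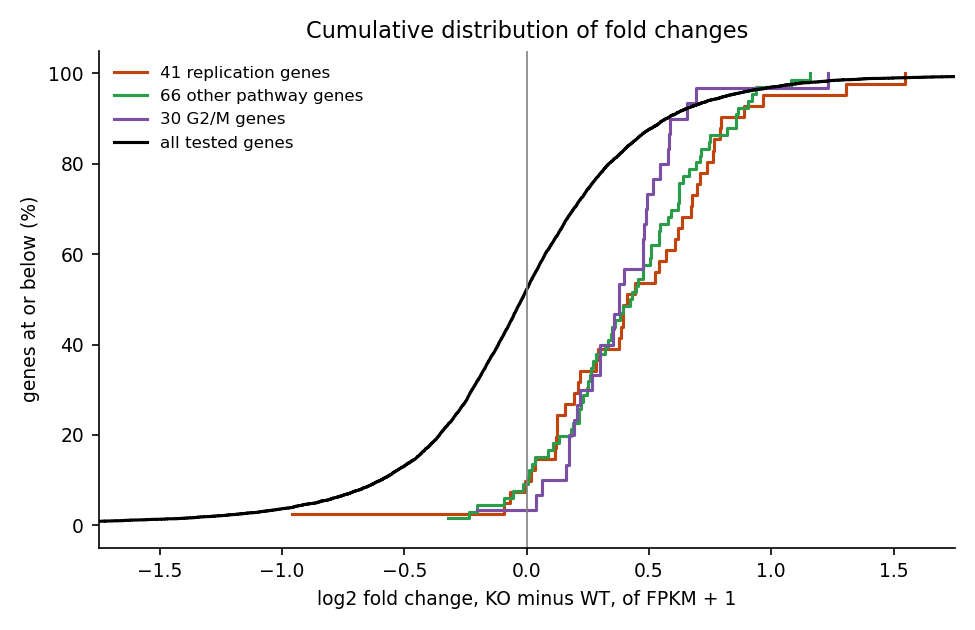
Share of genes (%) at or below each log2 fold change of FPKM + 1, libraries labelled KO minus libraries labelled WT, for the 41 replication genes, the 66 other pathway genes, the 30 G2/M genes and all 12080 genes tested. The 3 lists run close together to the right of all genes, with medians of 0.41, 0.43 and 0.38 against −0.02.

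The calls depended on single libraries. When 1 library at a time was left out, between 0 and 8 of the 41 genes were called higher. The number was 0 without KO 1 or KO 2, 1 without KO 3, 4 without WT 1 or WT 3 and 8 without WT 2. Over all genes tested, the share called higher was 1.05%, 1.07% and 1.11% without KO 1, 2 and 3. Without WT 1, 2 and 3 that share was 1.89%, 3.73% and 2.00%, against 3.65% with all 6 libraries. Of these 6 fits, Pold1 kept its call in 4, Pola2 and Dna2 in 2, and Pold2, Rrm2, Lig1, Rfc3 and E2f1 in 1. Cdc6 and Chaf1b lost their call whichever library was left out. Annotated isoforms alone gave 0 calls among the 41, with 1.01% of all genes tested called higher. Across the fits that left out 1 library, 34 to 39 of the 41 log2 fold changes stayed above 0.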

How the data were processed

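The values came from 1 deposited table of isoforms in 6 libraries. The authors gave FPKM for each isoform, and the deposited coverage columns hold its signal as mean reads per base. Per the submitters' processing notes, cutadapt, FastQC, Bowtie2, TopHat2 and StringTie were used, and neither their versions nor the genome build is given in the sources used here. Columns marked NT were taken as the WT libraries, by number and by elimination, and 0 value columns were unused. Of the Ensembl isoforms of the 41 genes found in GENCODE M21, 98.1% had identical coordinates, and places are printed as in the table.

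Of 125793 isoforms, 95506 were kept (annotated transcripts, and assembled ones sharing exons with a named gene) and summed per symbol to 27694 genes. Read numbers came from the ratio of coverage to FPKM, taking reads of 150 bases. At these depths, 3 reads on a transcript of 2000 bases equal 0.0414 to 0.0529 FPKM, which covers counting error only.

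limma 3.58.1 in R 4.3.3 was fitted to log2(FPKM + 1) with a variance trend, KO minus WT, for the 12080 genes with a mean of at least 1 FPKM. A gene was called at a Benjamini-Hochberg (BH) adjusted p under 0.05. The scale understates changes of low genes. Intervals are 95% intervals from limma. Tables and figures were made with Python 3.11.15, pandas 2.3.3, numpy 2.4.6, scipy 1.17.1 and matplotlib 3.10.9, and the fit was tested on simulated data. Replicate numbers were not used to pair the libraries in the main fit.

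The members, lists and tests were chosen with earlier results of these data known. Named are all 41 members, Vim, called genes of the other pathway list (up to 10) and of the G2/M list (up to 4), genes that share a locus with a member and cell type markers. Mcm4 and Mcm7 were named outside that rule to complete the helicase. Alternatives were the pseudocount, the filter, scaling, the variance model, the replicate block, each library left out, the isoforms summed, estimated reads with limma-voom, the threshold and the motif. One more, median-ratio scaling without WT 2, was chosen after seeing the data.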

Additional observations from a re-analysis of the deposited data

How the results depend on the processing

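The median log2 fold change of the 41 genes stayed between 0.33 and 0.62 and 34 to 39 of them stayed above 0 in the 20 alternatives that tested all 41, and 0 were called lower in any alternative. Counts of calls moved much more, and the cause was not tested. The number of replication genes called higher, 10, became 2 with no filter, 6 with quantile normalization, 0 with annotated (reference) transcripts only, 3 with every isoform class, 0 with the highest isoform only and 6 with median-ratio scaling without WT 2. It was 0 at a threshold of 0.01 and 21 at 0.1, and 0 to 8 with 1 library left out. Of all genes tested, 1.13% were called higher with no filter, 3.77% with quantile normalization and 3.07% with median-ratio scaling without WT 2. The count over all genes, 833, became 235 with reference transcripts, 542 with every class, 128 with the highest isoform, 219 and 1600 at thresholds of 0.01 and 0.1, and 281 to 768 with 1 library left out. The 9 other pathway genes became 3 with reference transcripts, 1 with the highest isoform, 17 with limma-voom, 1 and 21 at the other thresholds, and 1 to 14 with 1 library left out. The 5 G2/M genes became 1 with no filter, 3 with median-ratio scaling, 3 with no trend, 0 with reference transcripts, 3 with every class, 0 with the highest isoform, 10 with limma-voom, 1 with median-ratio scaling without WT 2, 0 and 11 at the other thresholds, and 0 to 2 with 1 library left out. The 8 genes with a promoter match became 3 on the forward strand only, 26 for the letters GGCGGG and 13 for TTTCCC. These were 9.09%, 78.8% and 39.4% of the 33 genes with a promoter, against 1.94%, 69.9% and 30.4% of the tested genes with one.

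With the replicate block, 15 genes were called in all, with 0 replication genes, 0 other pathway genes and 0 G2/M genes among them. Deviations of same-numbered libraries had r across genes of 0.012, −0.0031 and 0.065 for numbers 1, 2 and 3. Libraries of unlike number had r between −0.045 and 0.033. These values cannot show whether same-numbered cultures shared an animal or a batch, and the labels do not say. The block also takes up residual degrees of freedom.

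Signs turned only in genes that were not called, in 22 cases. Orc1 was at −0.30 with every class. Orc4 was at 0.041 with gene sums rescaled to a common total, 0.023 with quantile normalization, 0.099 with reference transcripts, 0.32 with the highest isoform, 0.024 with median-ratio scaling without WT 2, and between −0.18 and 0.094 with 1 library left out. Rfc1 was at −1.94 and Ccne1 at −0.64 with the highest isoform, Prim1 at 0.030 with reference transcripts, and Rrm1 at −0.0021 with median-ratio scaling without WT 2. With 1 library left out, Rrm1 ranged from −0.000107 to 0.048, Gins3 from −0.19 to 0.15 (2.35e-06 without WT 2), Gins4 from −0.11 to 0.34, Pola1 from −0.16 to 0.33 and Pole from −0.086 to 0.52. With 3 cultures a group, 1 library can decide a call.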
